A study of Homo sapiens with 2 samples.

Results

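RNAs with antisense symbols and their sense partners were compared in RKO cells, a human colorectal carcinoma line, that had received either the siRNA siHNRNPM, directed at HNRNPM, or the control siRNA siNC. The control cells are labelled wild type (WT) and the others HNRNPM knockdown, and neither carries another agent or allele in the labels. Each condition had 1 RNA-seq library from extracted total RNA, here called the siHNRNPM and the control library. HNRNPM encodes an RNA-binding protein of pre-mRNA splicing, and the comparison addresses how the transcriptome differs when it is knocked down. Neither the siRNAs' sequences nor the hours of treatment are given in the sources used. The antisense RNAs were selected on their symbol, which ends in -AS with an optional digit, and on a measured value, a total of 20 or more reads over both libraries. Of 1050 such symbols in the table of 54261 features, 233 met the read minimum, 254 had 1 to 19 reads and 563 had none. All 233 are called antisense RNAs here by symbol. The GENCODE 29 annotation types 156 of them as antisense, 35 as lincRNA and 29 as processed transcripts. Others are typed as bidirectional-promoter RNAs (4), transcribed pseudogenes or protein-coding (3). The sense partner is the row whose symbol stands before -AS. It existed for 227 of the 233 and had 20 or more reads for 198, which form the pairs, and 29 partners had fewer reads. The 198 pairs hold 197 distinct partners, since PAXIP1-AS1 and PAXIP1-AS2 share PAXIP1.

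Antisense RNAs are transcribed from the strand opposite to another gene and are mostly spliced, polyadenylated and low in abundance. Many start next to the start of the sense gene and run away from it, so that a single CpG-rich region serves both directions. Others run across the 3′ end of the sense gene, or lie inside it, where the transcripts are complementary if their exons overlap. Some are known to act on their neighbour and others act elsewhere in the cell, and for most no role is established.

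Reads assigned to features totalled 13056118 in the siHNRNPM library and 19931360 in the control library. HNRNPM had 1042 and 2870 reads, a log2 ratio of -0.86 with a 95% counting interval of -0.96 to -0.76 in the direction of the labels. Of markers of the intestinal epithelium, KRT8 and KRT18 had 450 and 433 reads in the siHNRNPM library and 547 and 632 in the control library, CDX2 had 106 and 212 and EPCAM 151 and 179. The log2 ratios were 0.32 (0.14 to 0.50) for KRT8 and 0.06 (-0.12 to 0.24) for KRT18. They were -0.40 (-0.75 to -0.05) for CDX2 and 0.36 (0.04 to 0.68) for EPCAM. KRT20 had no read and VIL1 had 0 and 1. The 233 antisense RNAs together took 0.190% of the siHNRNPM reads and 0.169% of the control reads, and all 233 had reads in both libraries. Ratios are siHNRNPM over control after TMM scaling, and the intervals cover counting error only. With 1 library per condition no test between conditions is possible, so every difference below is between these 2 libraries. In such bulk libraries, fewer cells with an RNA and less of it per cell cannot be told apart.

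The sequences below are RefSeq promoter windows (GRCh38.p14) of pairs whose start sites lie close together, and in which the antisense RNA passed the 2-fold rule given further on while the sense partner did not. In the first 3 windows both starts lie within the printed bases. They were picked after the motif search, as windows that hold the NRF1 core. Each runs 5′ to 3′ on the strand of the gene named first, and capitals mark matches on either strand to 6 motifs: TATAAA (the TATA box), CCAAT (the CCAAT box), GGGCGG (the GC box), CCGGAAG (an ETS site), GCGCATGC (the NRF1 core) and AAGATGGC (a YY1 site). Adjoining capitals can hold overlapping matches, as GCGCATGC can overlap its own reverse complement.
DDX11-AS1 (antisense), chr12:31073798-31074097, minus strand: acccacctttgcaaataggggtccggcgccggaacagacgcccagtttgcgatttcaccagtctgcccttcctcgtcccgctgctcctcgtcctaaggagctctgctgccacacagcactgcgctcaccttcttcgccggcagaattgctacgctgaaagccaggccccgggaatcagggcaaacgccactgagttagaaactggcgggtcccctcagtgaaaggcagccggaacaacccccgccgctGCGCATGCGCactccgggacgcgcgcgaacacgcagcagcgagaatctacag
UBAC2-AS1 (antisense), chr13:99200708-99201007, minus strand: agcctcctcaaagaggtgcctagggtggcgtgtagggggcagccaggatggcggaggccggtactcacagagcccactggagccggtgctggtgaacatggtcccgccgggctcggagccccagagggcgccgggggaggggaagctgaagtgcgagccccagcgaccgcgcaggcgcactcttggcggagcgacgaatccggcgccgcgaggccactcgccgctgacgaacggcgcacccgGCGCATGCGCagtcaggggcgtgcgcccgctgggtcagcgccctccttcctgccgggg
NUP50 (sense partner of NUP50-AS1), chr22:45163675-45163974, plus strand: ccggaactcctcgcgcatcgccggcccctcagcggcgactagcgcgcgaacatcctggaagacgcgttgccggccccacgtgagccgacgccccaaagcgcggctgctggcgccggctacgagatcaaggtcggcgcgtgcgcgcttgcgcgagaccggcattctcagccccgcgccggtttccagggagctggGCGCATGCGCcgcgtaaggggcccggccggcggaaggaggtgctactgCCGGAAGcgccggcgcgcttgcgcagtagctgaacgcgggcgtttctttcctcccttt
CCNT2-AS1 (antisense), chr2:134918557-134918856, minus strand: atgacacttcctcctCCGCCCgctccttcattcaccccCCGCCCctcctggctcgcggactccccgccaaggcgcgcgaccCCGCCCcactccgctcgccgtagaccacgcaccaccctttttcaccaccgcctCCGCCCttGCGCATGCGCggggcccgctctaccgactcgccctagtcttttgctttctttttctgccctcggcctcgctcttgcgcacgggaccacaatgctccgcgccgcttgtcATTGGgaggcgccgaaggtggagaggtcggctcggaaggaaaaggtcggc
In the DDX11-AS1 window the annotated GENCODE 29 starts of the antisense and the sense gene fall at bases 251 and 253, counted from the 5′ end. Both lie inside the NRF1 match. In the UBAC2-AS1 window they fall at bases 298 and 234, and in the NUP50 window at 107 and 167. In the CCNT2-AS1 window the antisense start falls at base 147 and the sense start lies outside. Among all 27305 windows, 3.27% hold GCGCATGC.

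Over the 149 antisense RNAs with a window, CpG was frequent and the TATA box infrequent. They had a median of 22 CpG per 300-base window, against 14 over all windows and 27 over 193 windows of sense partners. TATAAA was present in 3.36% of them and in 12% of all windows, and GGGCGG in 58.4% and 44.6%. In the windows of sense partners the shares were 7.25% for TATAAA and 68.9% for GGGCGG. GCGCATGC was present in 6.04% of the antisense windows and in 5.7% of the windows of sense partners. Windows of a pair can overlap, and the same site then counts in both sets, as for DDX11-AS1, UBAC2-AS1 and CCNT2-AS1. These shares therefore cannot tell whether it is particular to the antisense RNAs. It was present in 6 of the 66 windows (9.09%) of RNAs that start next to the sense gene. Of the 14 windows of RNAs called 2-fold higher, 2 held GCGCATGC and 0 held TATAAA or CCAAT. The CCAAT box was present in 35.7% of all windows and in 30.2% of the antisense windows. A match is a string of letters, not a bound site.

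Antisense RNAs had higher ratios than most features. Their median log2 ratio was 0.18 (quartiles -0.10 and 0.58), against -0.01 (-0.22 and 0.19) over all 13422 features with 20 or more reads and -0.03 (-0.18 and 0.16) over the 197 sense partners. The ratio was above 0 for 163 of 233 antisense RNAs, or 70.0%, and for 48.3% of all features. The interval lay above a ratio of 1 for 63 antisense RNAs (27%), below it for 11 (4.72%) and spanned it for 159. Over all features the interval lay above for 21.2% and below for 25.3%. Without regard to depth, the share above was thus near the background and the share below was the smaller. All features had a median of 973.5 reads and antisense RNAs 73, and intervals are wider with fewer reads. With 20 to 99 reads the shares were 19.3% above and 2.22% below for antisense RNAs, against 13.7% and 8.39% for all features. With 100 or more reads the shares were 37.8% above and 8.16% below for antisense RNAs, against 22.7% and 28.7% for all features. The shift was not particular to this class by these values, since the 90 features with LINC symbols, named as intergenic non-coding RNAs, had a median of 0.21 (-0.20 and 0.55). It was present at both depths of reading, with medians of 0.19 for the 135 antisense RNAs with 20 to 99 reads and 0.16 for the 98 with 100 or more. All features had 0.07 and -0.02 in the same read ranges. Summed over the 233, the reads gave a log2 ratio of 0.16, and the same without LRRC75A-AS1, which alone took 22.4% of them.

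**Figure D1:**
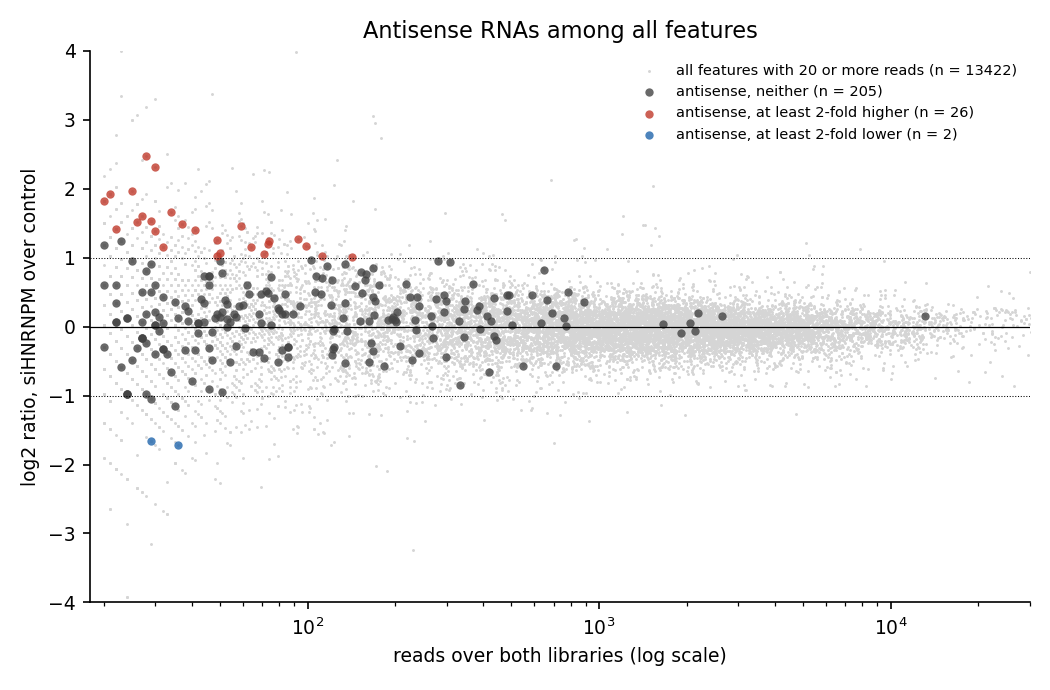
Log2 ratio (siHNRNPM over control) against reads over both libraries (log axis) for the 233 antisense RNAs (large points) and the 13422 features with 20 or more reads (small grey points, those beyond the axes not drawn). Dotted lines mark 2-fold. Most antisense RNAs past the 2-fold rule, in red for 26 higher and blue for 2 lower, have under 100 reads.

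**Figure D2:**
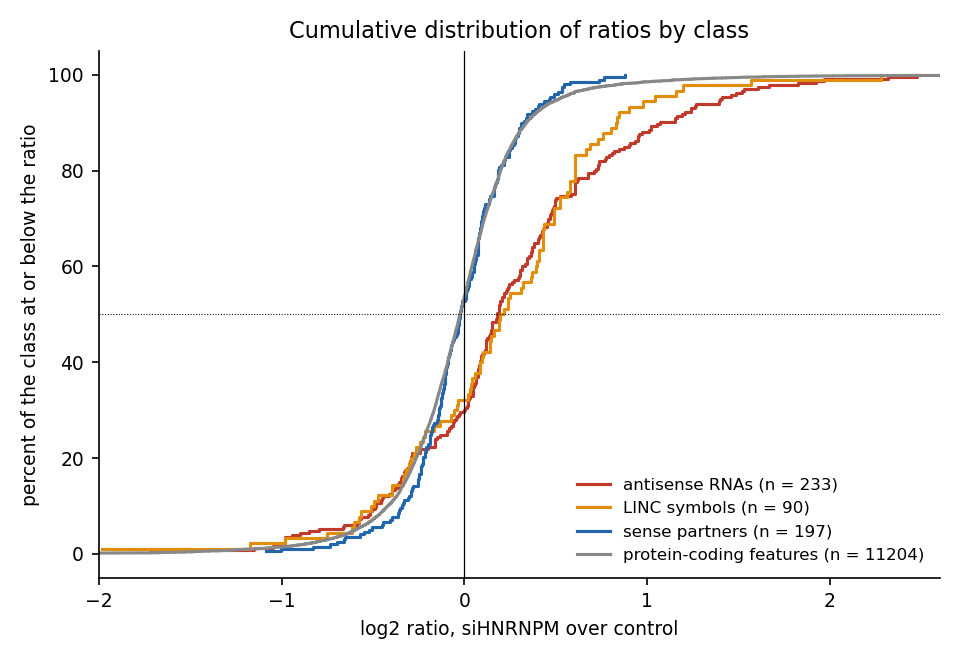
Cumulative distribution of log2 ratios, in percent of each class, for antisense RNAs (n = 233), LINC symbols (n = 90), sense partners (n = 197) and protein-coding features (n = 11204), all with 20 or more reads. The antisense and LINC curves lie to the right of the sense and protein-coding curves over most of the range, with medians of 0.18 and 0.21 against -0.03 and -0.02; the horizontal axis is cut at -2 and 2.6.

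The 2-fold rule asked for a log2 ratio of 1 or more, or -1 or less, with a counting interval that did not span equality. By this rule 26 antisense RNAs were higher and 2 lower, against 2.32% and 1.54% of all features. The share depended on read depth. Among features with 20 to 99 reads the rule called 10.5% higher and 6.36% lower, and among antisense RNAs in that range 24 of 135 higher (17.8%) and 2 lower (1.48%). Among features with 100 or more reads it called 0.663% higher and 0.565% lower, and among antisense RNAs 2 of 98 higher and 0 lower. Of the LINC symbols, which had a median of 136.5 reads, 4 of 90 were called higher and 2 lower. With 20 to 99 reads these were 3 of 34 higher (8.82%) and 2 lower (5.88%). With 100 or more reads they were 1 of 56 higher and 0 lower. The 26 higher antisense RNAs had 20 to 142 reads with a median of 39, so single ratios are wide. Only RALY-AS1 and LPP-AS2 kept the whole interval beyond 2-fold.

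RALY-AS1 had 22 reads in the siHNRNPM library and 6 in the control library, or 1.68 and 0.302 CPM, which is reads relative to the scaled library total. Its log2 ratio of 2.48 (1.13 to 4.07) was the highest of the 233. The gene lies at chr20:33980687-33994357 on the minus strand, and GENCODE 29 types it as a lincRNA. Its start is 711 bases from that of RALY, which encodes an RNA-binding protein of the hnRNP family and had 1729 and 2837 reads (-0.11, -0.20 to -0.02). No exon base is shared by the pair, and the antisense ratio exceeded the sense ratio by 2.59 (1.24 to 4.18).

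LPP-AS2, which starts 773 bases from LPP, a LIM-domain gene of cell adhesions, had 23 against 7 reads (2.32, 1.05 to 3.78). LPP itself had 3467 and 5764 reads (-0.13, -0.19 to -0.07). The antisense RNA was thus 4.99-fold higher and its partner slightly lower, although 230 exon bases lie in both genes. OSER1-AS1 had 38 and 21 reads (1.46, 0.65 to 2.30) beside a partner at -0.22, and PARD6G-AS1, opposite a cell-polarity gene, had 18 and 7 (1.97, 0.64 to 3.47) beside -0.22. MAP3K14-AS1 runs across the 3′ end of the gene for the NF-kB-inducing kinase and had 57 and 36 reads (1.27, 0.64 to 1.91). MAP3K14 had 87 and 166 reads (-0.33, -0.72 to 0.05), and GENCODE lists it a further time on an alternate haplotype.

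The start of DDX11-AS1 and those of the next 2 RNAs lie close to the start of the partner. DDX11-AS1, whose window is printed above, had 26 and 15 reads and was 2.63-fold higher (log2 interval 0.43 to 2.42). The helicase gene DDX11, which starts 2 bases away, had 1213 and 1809 (0.03, -0.08 to 0.13). NUP50-AS1 had 59 and 40 reads (1.16, 0.56 to 1.78), while the nucleoporin gene NUP50, 60 bases away, had -0.09. FBXL19-AS1 had 44 and 29 (1.20, 0.50 to 1.93), with FBXL19, encoding a CpG-binding F-box protein, at -0.06. The starts of these 3 pairs lie within 214 bases, yet only the antisense RNA passed the rule.

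Other names among those whose lower bound was farthest from a ratio of 1 were MAN1B1-AS1 with 23 and 11 reads (1.67), PITPNA-AS1 with 81 and 61 (1.01), FLG-AS1 with 15 and 6 (1.93) and ITPR1-AS1 with 24 and 13 (1.49). PITPNA-AS1, opposite a phosphatidylinositol transfer protein gene, and RPARP-AS1, with 64 and 48 reads (1.02), were those above 100 reads in total. RPARP-AS1 has no partner row. ITPR1, encoding a calcium channel of the endoplasmic reticulum, was also above a ratio of 1, at 0.40 (0.35 to 0.46). Of the 21 higher antisense RNAs in a pair, the partner's interval lay above a ratio of 1 for 6, below it for 5 and spanned it for 10. The partners' ratios ran from -0.45 to 0.88 with a median of -0.06, and none passed the 2-fold rule.

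**Figure D3:**
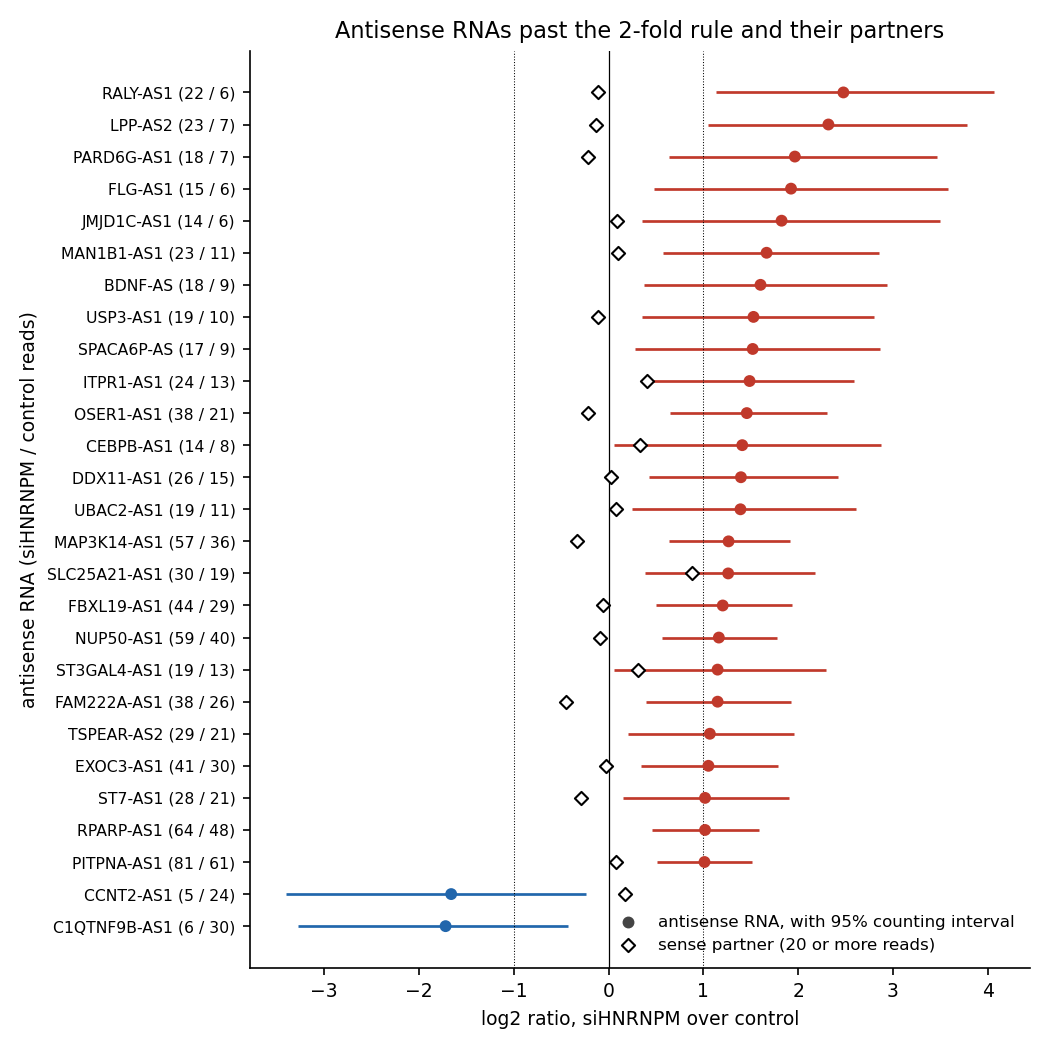
Log2 ratio (siHNRNPM over control) with 95% counting interval for 25 of the 26 antisense RNAs called higher (red) and the 2 called lower (blue), with siHNRNPM and control reads in brackets. Open diamonds are the sense partners with 20 or more reads, which run from -0.45 to 0.88 beside the RNAs called higher; dotted lines mark 2-fold.

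Both antisense RNAs called lower had few reads. CCNT2-AS1, which starts beside the cyclin T2 gene, had 5 reads in the siHNRNPM library and 24 in the control library (-1.66, -3.41 to -0.24). CCNT2 had 1209 and 1629 (0.17, 0.06 to 0.28), the opposite direction. C1QTNF9B-AS1, named PCOTH in GENCODE, with exons that overlap C1QTNF9B and MIPEP, had 6 and 30 (-1.72, -3.27 to -0.43), and its partner had 1 read in all.

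Lower ratios with better depth belonged to RNAs that did not reach 2-fold. FAM13A-AS1 had 89 and 244 reads (-0.85, -1.22 to -0.50). TTN-AS1, which overlaps the titin gene over 11381 exon bases, had 123 and 296 (-0.66, -0.98 to -0.36), while TTN had 12226 and 13224 (0.49, 0.45 to 0.53). C1RL-AS1 had 168 and 381 (-0.58, -0.85 to -0.31) beside C1RL, a serine protease gene, at 0.47 (0.21 to 0.72). MAPKAPK5-AS1 had 219 and 493 (-0.57, -0.80 to -0.33) beside the kinase gene MAPKAPK5 at 0.04. FAM13A was also below a ratio of 1, at -0.21 (-0.40 to -0.02), whereas TTN and C1RL were above it.

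Of the 11 antisense RNAs whose interval lay below a ratio of 1, 7 hold the 7-base sequence GTGAGAA in at least 1 GENCODE transcript, against 58 of all 232 searched (25%) and 15 of the 63 above. The sequence was chosen because an earlier look at these same libraries had linked it to lower ratios, so these counts are no independent evidence. The 58 RNAs with it had a median log2 ratio of 0.05 (quartiles -0.28 and 0.46) and the 174 without it 0.20 (0.00 and 0.60). With 100 or more reads the medians were 0.05 for 31 and 0.20 for 67. The RNAs with it also had longer transcripts, with a median of 2655 bases for the longest transcript against 1938, and the part of length was not tested. Of the 11 RNAs that hold it in every transcript the median was 0.30, and RALY-AS1 holds it in 1 transcript. The sites below, with 10 bases on either side and GTGAGAA in capitals, are those of 4 of the 7.
MAPKAPK5-AS1, in 5 of 7 transcripts: gtattgttatGTGAGAAtaaataaact
TTN-AS1, in 20 of 71 transcripts: gataggatatGTGAGAAtaccagcatg
PRKCQ-AS1, in 8 of 20 transcripts: aaaacgagatGTGAGAAagaagaggat
C1RL-AS1, in 1 of 5 transcripts: tgcgtctgtgGTGAGAAgcctgatcat

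Most of the 10 most read antisense RNAs had ratios near 1. LRRC75A-AS1, which holds the small nucleolar RNAs SNORD49A, SNORD49B and SNORD65, had 5523 reads in the siHNRNPM library and 7565 in the control library (0.15, 0.10 to 0.20). FGD5-AS1 had 1112 and 1520 (0.15, 0.04 to 0.26) and OTUD6B-AS1 942 and 1250 (0.20, 0.07 to 0.32). The intervals of these 3 lay above a ratio of 1 by small margins. THAP9-AS1 had 829 and 1310 reads (-0.06), MMP24-AS1 831 and 1222 (0.05), OIP5-AS1, also known as cyrano, 728 and 1180 (-0.09), PSMA3-AS1 666 and 990 (0.03) and NIPBL-AS1 305 and 462 (0.00). The intervals of these 5 spanned a ratio of 1. SVIL-AS1 with 407 and 481 reads (0.36, 0.17 to 0.56) and ZEB1-AS1 with 377 and 406 (0.50, 0.29 to 0.70) had the highest ratios of the 10 most read. Over all 19 antisense RNAs with 500 or more reads the median was 0.13, and the ratios ran from -0.58 to 0.82. The interval lay above a ratio of 1 for 8, below it for 2 and spanned it for 9. Of all features with 100 or more reads, 22.7% lay above and 28.7% below. None of the 19 passed the 2-fold rule.

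Of a list of 60 well-studied antisense RNAs, 57 had a row and 32 met the read minimum. Their median was 0.10, with 9 above a ratio of 1, 3 below and 20 spanning it, and with 3 called higher and 0 lower. Beside the 21.2% above and 25.3% below over all features, which were not matched for reads, the 9 of 32 above are near the background. The 2-fold rule called 2.32% of all features higher and 1.54% lower, and 10.5% and 6.36% of those with 20 to 99 reads. Besides DDX11-AS1, ZEB1-AS1 and FGD5-AS1, those above included BDNF-AS, opposite the neurotrophin gene BDNF, with 18 and 9 reads (1.60, 0.37 to 2.94), ST7-AS1 (1.02), MCM3AP-AS1 (0.88), CD27-AS1 (0.82), TMPO-AS1 (0.97) and GABPB1-AS1 (0.40). Those below were TTN-AS1, MAPKAPK5-AS1 and PRKCQ-AS1 (-0.48). The 20 that spanned a ratio of 1 ran from -0.41 for SLC25A25-AS1 to 0.48 for KTN1-AS1. They included BACE1-AS (0.30), HIF1A-AS2 (0.26), AGAP2-AS1 (0.13), SBF2-AS1 (0.15), HOXB-AS1 (0.07), MAFG-AS1 (0.06), UBA6-AS1 (0.05), A1BG-AS1 (0.02), FOXD2-AS1 (-0.04), PTOV1-AS2 (-0.07), LOXL1-AS1 (-0.20), TOB1-AS1 (-0.31), PCBP1-AS1 (-0.34), HOXD-AS2 (0.36) and ZNF561-AS1 (0.47).

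Grouped by what the partner encodes, all 7 groups had positive antisense medians. For 26 partners of RNA processing and translation the antisense median was 0.24, with 7 above a ratio of 1 and 0 below, and the sense median over the same pairs was 0.03. For 16 partners that encode chromatin proteins and cofactors it was 0.44, with 6 above and 0 below and 4 called higher, against -0.06 for the sense genes. For 25 transcription factor partners it was 0.25, with 5 above and 1 below. Partners of mitochondria and metabolism (13, median 0.22), the proteasome and ubiquitin (13, 0.20) and membrane traffic (15, 0.15) had 3, 3 and 2 above and 0 below. The 10 zinc-finger partners had the lowest antisense median, 0.10, with 1 above and 1 below, and a sense median of 0.18. Over all features, which were not matched for reads, 21.2% lay above and 25.3% below. The counts above in 4 of the 7 groups (7 of 26, 5 of 25, 3 of 13 and 3 of 13) are near the share above. The 2-fold rule called 2.32% of all features higher. With 20 to 99 reads it called 10.5% of features and 17.8% of antisense RNAs higher. The groups were drawn up with the ratios known and carry no test, also for the 4 of 16 called higher.

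The pair comparison asks whether an antisense RNA and its partner had the same ratio. Across the 198 pairs the antisense minus sense difference had a median of 0.29 on the log2 scale (quartiles -0.21 and 0.66) and was positive in 130. The ratios stood apart, by an exact interval on the ratio of ratios that needs no scaling, in 56 pairs (28.3%), with the antisense RNA higher in 46 and the sense gene in 10. Standing apart was not unusual for neighbours: it held for 40.4% of 2010 other opposite-strand neighbour pairs, 1669 of which had 100 or more reads in both rows. With the less-read row under 100 reads the shares were 18.4% of 125 antisense pairs and 21.4% of 341 others, and with 100 or more 45.2% of 73 and 44.3%.

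Within pairs the antisense ratio did not follow the sense ratio. Pearson's r across the 198 pairs was 0.03 and Spearman's rho 0.00, and the signs were the same in 90. These are descriptions across genes of the same 2 libraries, many with few reads, and genes are not replicates. In the 73 pairs with 100 or more reads in both rows r was -0.03. Over all 198 pairs, both intervals lay above a ratio of 1 in 16 and both below in 1. The antisense RNA was above and the sense gene below in 13 of the 198, and the reverse held in 4. Of the 73 pairs with more reads, 7 and 3 had these opposite directions. In 72 of the 198 both intervals spanned a ratio of 1. Over all features the interval lay above for 21.2% and below for 25.3%. Some pairs would have opposite directions with unrelated ratios, and whether these counts differ from that was not tested.

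**Figure D4:**
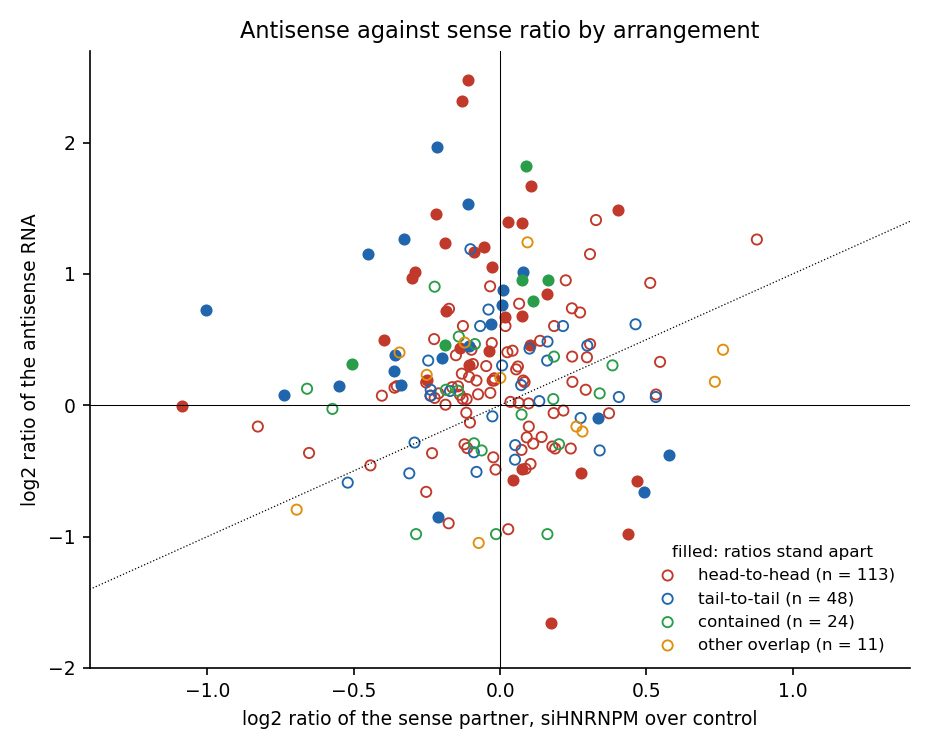
Log2 ratio (siHNRNPM over control) of the antisense RNA against that of its sense partner for the 196 pairs with a known arrangement, coloured by arrangement and filled where the ratios stand apart. The dotted line is equality; points spread more along the vertical axis, and 46 of the 56 pairs that stand apart lie above the line.

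ZEB1-AS1 and ZEB1, the gene of a transcription factor of epithelial-mesenchymal transition, had ratios in opposite directions and 366 exon bases in common. ZEB1-AS1 had 28.8 CPM in the siHNRNPM library and 20.4 in the control library, while ZEB1 had 4045 and 8083 reads (-0.40, -0.45 to -0.34). The difference was 0.89 (0.68 to 1.10). TMPO-AS1, beside the gene of the lamina-associated polypeptide LAP2, had 58 and 45 reads (0.97) against -0.30 for TMPO, a difference of 1.27 (0.68 to 1.87). For OTUD6B-AS1, which starts 7 bases from its deubiquitinase gene, the difference was 0.44 (0.27 to 0.62). OIP5-AS1 differed from OIP5, a centromere gene, the other way, by -0.43 (-0.78 to -0.08), and ZNF337-AS1 from ZNF337 by -0.96 (-1.37 to -0.55).

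Other wide differences came with few antisense reads. CCNT2-AS1 differed from CCNT2 by -1.83 (-3.58 to -0.41), and JMJD1C-AS1 from JMJD1C, a demethylase-family gene, by 1.74 (0.27 to 3.40). USP3-AS1 (1.64), FAM222A-AS1 (1.60), MAP3K14-AS1 (1.60) and MAN1B1-AS1 (1.56) were higher than their partners. These 6 antisense RNAs had 20 to 93 reads each, so their differences have wide intervals.

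Among the partners with 20 or more reads, 0 passed the 2-fold rule as higher and 2 as lower (1.02%), against 2.32% and 1.54% of all features. Both had 100 or more reads, where the rule called 1.09% of 184 partners and 0.565% of all features lower. HOXA10, a homeobox gene, had 148 reads in the siHNRNPM library and 451 in the control library and was 2.01-fold lower (log2 interval -1.28 to -0.73). HOXA10-AS had 24 and 22 (0.73, -0.17 to 1.63), a difference of 1.73 (0.79 to 2.68), although 608 exon bases are shared. ATP2A1, the gene of a sarcoplasmic calcium pump, had 53 and 171 reads (-1.09, -1.56 to -0.63), and ATP2A1-AS1 had 21 and 32 (log2 interval -0.87 to 0.83), a difference of 1.08 (0.09 to 2.05). In both pairs, which were picked on the low ratio of the gene, the antisense RNA did not share that ratio.

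Antisense medians were above 0 in every arrangement on the chromosome. Of the 233 RNAs, 116 start within 2000 bases of the sense start on the opposite strand (head-to-head), 55 overlap the 3′ end of the partner (tail-to-tail), 41 lie inside it or hold it, 16 overlap in another way and 5 have no known arrangement. Head-to-head genes often share a promoter region. Tail-to-tail and contained genes, and head-to-head genes that overlap, have complementary spliced RNAs only where they share exon bases. MAPKAPK5-AS1 and MAPKAPK5, which are head-to-head, have 792 exon bases in common. PARD6G-AS1 and PARD6G are tail-to-tail and share no exon base. The median log2 ratios were 0.19, 0.15, 0.12, 0.22 and 0.12 in that order. Head-to-head RNAs made up 15 of the 26 called higher (57.7%) and 49.8% of all. The median antisense minus sense difference was 0.29 over 113 head-to-head pairs, 0.32 over 48 tail-to-tail pairs, 0.28 over 24 contained pairs and -0.10 over 11 with another overlap. Ratios stood apart in 30, 20, 6 and 0 of these. The less-read row had a median of 71, 86, 67.5 and 43 reads in that order. Of the other opposite-strand neighbour pairs 40.4% stood apart, 21.4% with the less-read row under 100 reads and 44.3% with more. Whether standing apart differs between arrangements at equal depth was not tested.

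Strand use in the counting was not given, so reads from shared exons cannot be told apart between an antisense RNA and an overlapping gene. In 128 pairs the genes share exon bases, and in 68 they share none. The median difference was 0.30 in the first and 0.28 in the second, and r was 0.02 and 0.04. Over the 61 antisense RNAs whose exons overlap no other annotated gene the median log2 ratio was 0.24 (quartiles 0.00 and 0.60), with 9 called higher and 0 lower. The same rule called 2.32% of all features higher and 1.54% lower, and 10.5% and 6.36% of those with 20 to 99 reads. The 61 were not matched to these for reads.

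Per kilobase of annotated exon, most antisense RNAs were far below their partners. Over the 196 pairs with known lengths, the median antisense level was 12.6% of the sense level in the control library and 14.8% in the siHNRNPM library. The antisense level was above the sense level in both libraries in 26 pairs. LRRC75A-AS1 reached 112 and 101 CPM per kilobase against 1.47 and 2.15 for LRRC75A, in the siHNRNPM and control library. THAP9-AS1 had 14.4 and 15.0 against 2.54 and 2.75, and MAPKAPK5-AS1 7.31 and 10.8 against 2.50 and 2.42. RALY-AS1 lay at the other end, with 0.190 and 0.0342 against 17.6 and 19, and had the lowest control level of all 232 antisense RNAs with a known length. Of the 26 called higher, 24 were below the median antisense level in the control library, a value that is also the denominator of their ratio.

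**Figure D5:**
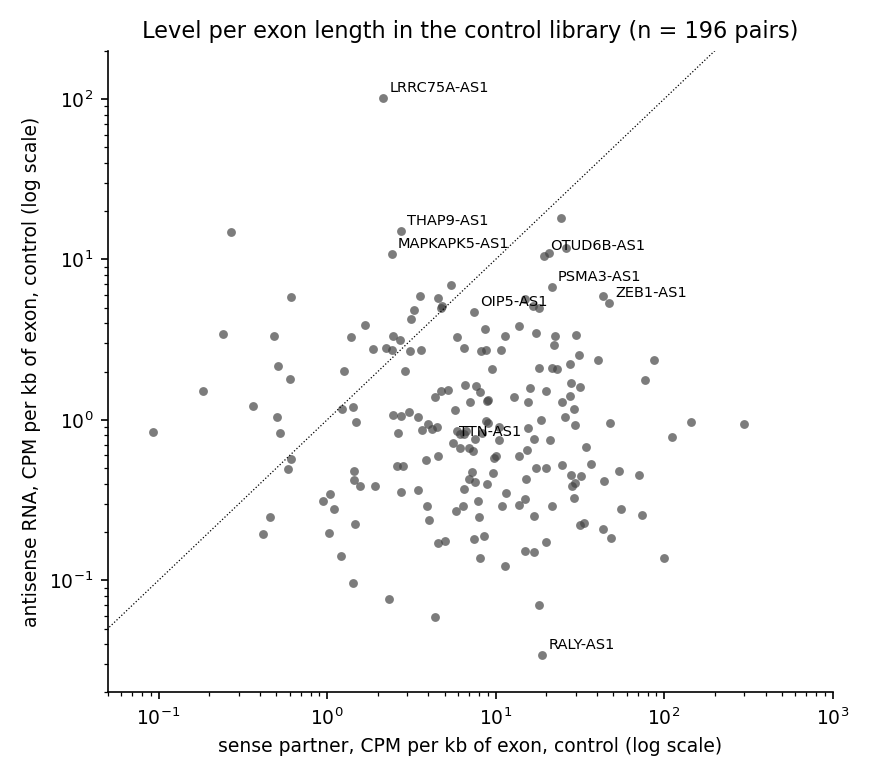
Level of the antisense RNA against that of its sense partner in the control library, in CPM per kilobase of GENCODE 29 exon (both axes log), for 196 pairs. The dotted line is equality; most pairs lie below it, and LRRC75A-AS1, at 101 against 2.15, has the highest antisense level.

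At the read minimum, JMJD1C-AS1 (14 and 6 reads, 1.83), LRP4-AS1 (12 and 8, 1.19), RGMB-AS1 (7 and 13, -0.29) and UGDH-AS1 (10 and 10, 0.60) had exactly 20 reads. With 19 reads, TMEM9B-AS1 (4 and 15, -1.30), SATB1-AS1 (5 and 14, -0.88), CBR3-AS1 (9 and 10, 0.45) and DLX2-AS1 (11 and 8, 1.06) stayed just outside. Of all antisense symbols with a read, 105 had reads in only 1 library, with at most 7 reads each.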

How the data were processed

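RNA-seq counts of 2 libraries of RKO cells were used, 1 per condition, with groups taken from the treatment labels. The authors deposited raw counts: integers, 1 per symbol and library. Per the submitters' processing notes, HISAT2 2.0.4 and the build GRCh38 were used, with no role stated. Which counter and annotation made the table, and whether strand was used, is not given in the sources used here.

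Counts were scaled over the whole table by TMM (edgeR 4.0.16, R 4.3.3), and log2 ratios were computed with 0 set to 0.5. Exact Clopper-Pearson 95% intervals came from the split of each feature's reads, and exact conditional odds-ratio intervals from the 4 counts of a pair. The procedure was tested on simulated data. Of the 233 antisense symbols, 203 matched GENCODE 29 by name, 29 by an older symbol and 1 not uniquely. Promoter windows came from RefSeq (GRCh38.p14).

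The members, lists and groups were chosen with earlier results of these data known. Named were up to 12 antisense RNAs per direction by the interval's nearest bound, the 10 most read, the 12 widest pairs, partners past the 2-fold rule, those at the read minimum and the well-studied list. RNAs with values below a ratio of 1 and other examples were chosen after their values were seen. The values of 1 RNA that the rule names are not reported here. Scaling, read minimum, thinning and overlap were varied.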

Additional observations from a re-analysis of the deposited data

How the results depend on the processing

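No paired analysis was possible because each condition has 1 library, and no library could be left out. Total-count, DESeq2 1.42.0 and upper-quartile scaling gave 26, 26 and 27 antisense RNAs called higher and 2 lower in each case, with medians of 0.19, 0.17 and 0.21. Other read minimums, a CPM filter, thinning the control library and leaving out overlapping exons kept the median between 0.16 and 0.24 and the pair difference between 0.22 and 0.36. The count called higher depended on low reads: it was 10 at a minimum of 50 reads and 2 at 100, and 0 were then called lower at either. It was 2, with 0 lower, when both interval bounds had to pass 2-fold, and 9 of 61, with 0 lower, without exon overlap. After thinning, which left 218 antisense RNAs, 18 were called higher and 4 lower. With 100 or more reads the main rule called 0.663% of all features higher and 0.565% lower. For the other changed settings the share of all features is not given here, so those counts cannot be set against a background. Pairs that stood apart numbered 33 of 73 at 100 reads and 17 of 54 without exon overlap, where fewer were compared, and 41 of 198 with 99% intervals. Leaving out genes with a copy on an alternate sequence, chosen after seeing the data, gave 25 higher and 2 lower. Depth limits single RNAs: a total of 20 reads leaves an interval of several log2 units.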
